A study of Sus scrofa with 16 samples.

Results

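The locus described is a stretch of 345.5 kb on pig chromosome 1, at chr1:153432001-153777500 of the Sscrofa10.2 build, around IGF1R, the gene of the insulin-like growth factor 1 receptor. It runs from 100 kb before to 100 kb after a pair of 500 bp windows that the study listed as differentially methylated regions (DMRs) and placed in an intron of IGF1R, at chr1:153532001-153532500 and chr1:153677001-153677500. Every methylation peak that overlapped this stretch was taken, which gave 192 of the 1159046 peaks of the whole data set, of which 111046 lie on chromosome 1. DNA methylation was measured by methylated DNA immunoprecipitation sequencing (MeDIP-seq), in which an antibody against 5-methylcytosine pulls down methylated fragments and a peak is a stretch where their reads (tags) pile up over the local background. The tissue was whole heart of 16 male pigs of 6 months, castrated per the study's methods, 4 in each of 4 groups, and in whole tissue a change in the makeup of cells and a change of methylation within cells cannot be told apart. The groups were Tibetan pigs in the highland (TH), Yorkshire pigs in the highland (YH), Tibetan pigs in the lowland (TL) and Yorkshire pigs in the lowland (YL). YH and TL were the groups bred for only 1 generation after a move between the elevations, and all animals were conceived, born and raised where they were sampled.

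IGF1R is a receptor tyrosine kinase of the cell surface. When it binds IGF1 or IGF2 it phosphorylates its substrates, and the signal passes to the PI3K and AKT kinases and to the RAS and MAP kinase cascade, which drive growth and survival of cells. In the heart this pathway is known for the growth of cardiac muscle and for protection of muscle cells from death. Methylation of cytosines inside the body of a gene can lie over regulatory elements of its introns, but it has no fixed relation to how strongly the gene is expressed, and no expression was measured in these files.

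The windows came from read counts of these same animals, so the values that chose them describe the locus and are no test of it. The window at chr1:153532001-153532500, here window B, was chosen in the comparison of breeds in the highland (TH vs. YH). The window at chr1:153677001-153677500, window C, was chosen in the comparison of breeds in the lowland (TL vs. YL). Another listed window of the locus, window A at chr1:153469001-153469500, was also chosen in TL vs. YL and was annotated as intergenic. For this reason the differences between breeds over the locus, and all differences at the 3 windows, are given as descriptions without a p-value. Tests are given for highland against lowland at the other clusters, a contrast that chose none of the windows. In the RefSeq annotation of the later Sscrofa11.1 build the genes next to IGF1R are PGPEP1L and SYNM. A gene model of the build of the files was not used here, so the position of a peak against exons is not given beyond the element named for the 3 windows.

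Each group had 1 list of peaks, and at most 4 peaks of a list covered any base, which is the number of animals of a group. Each list was thus taken to join the peaks of 4 animals without their names, and the number of animals with a peak was the largest number of peaks of the group over any 1 base. The lists differed in size, with 280678 TH, 287224 YH, 259066 TL and 332078 YL peaks. The locus followed that order, with 43 TH, 52 YH, 42 TL and 55 YL peaks. Per 10000 peaks of a list the locus held 1.53 in TH (95% exact interval 1.11 to 2.06), 1.81 in YH (1.35 to 2.37), 1.62 in TL (1.17 to 2.19) and 1.66 in YL (1.25 to 2.16), and these intervals, which cover counting error only and treat peaks as independent, overlapped in all 4 groups. The part of the size of the lists in the counts of animals given below was not tested.

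The locus held more peaks than most of chromosome 1. In TH it held 124 peaks per Mb against 84.3 over chromosome 1, in YH 151 against 87.1, in TL 122 against 80.7 and in YL 159 against 101. The ratio to chromosome 1 was 1.48 (TH), 1.73 (YH), 1.51 (TL) and 1.57 (YL). Several animals often had a peak at the same site, and with the overlapping peaks of a list merged the ratio was lower, at 1.26 (TH), 1.44 (YH), 1.34 (TL) and 1.28 (YL). No interval is given for these ratios, as the peaks of a site are not independent. Among 909 stretches of the same length on chromosome 1, fewer peaks were held by 72.7% (TH), 81.6% (YH), 74.1% (TL) and 76.9% (YL), so the locus was above the median of the chromosome in each list but not at its extreme. Peaks covered 6.35% (TH), 7.94% (YH), 5.75% (TL) and 8.32% (YL) of the locus. The median fold enrichment of its peaks was 9.40 in TH against 8.28 in the whole list, 8.86 against 7.29 in YH, 9.61 against 7.88 in TL and 8.47 against 7.49 in YL. The median of tags was lower than in the whole list in 3 groups, at 21 against 27 in TH, 19.5 against 25 in TL and 27 against 30 in YL, and 29.5 against 29 in YH. The median length was also lower in these 3 groups, at 893 against 995 bp in TH, 839 against 943 bp in TL and 1018 against 1045 bp in YL, and it was 1073 against 1027 bp in YH. Fold enrichment is the ratio of the tags of a peak to the number that the local background predicts, as the peak caller gave it. At the edges of the locus, the outermost peaks inside lay 5031 bp from its start (TL, 12 tags, fold enrichment 10.12) and 10789 bp from its end (YH, 18 tags, 8.96), and the nearest peaks outside lay 25904 bp before it (YH, 43 tags, 9.36) and 27376 bp after it (YL, 14 tags, 8.22).

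**Figure D1:**
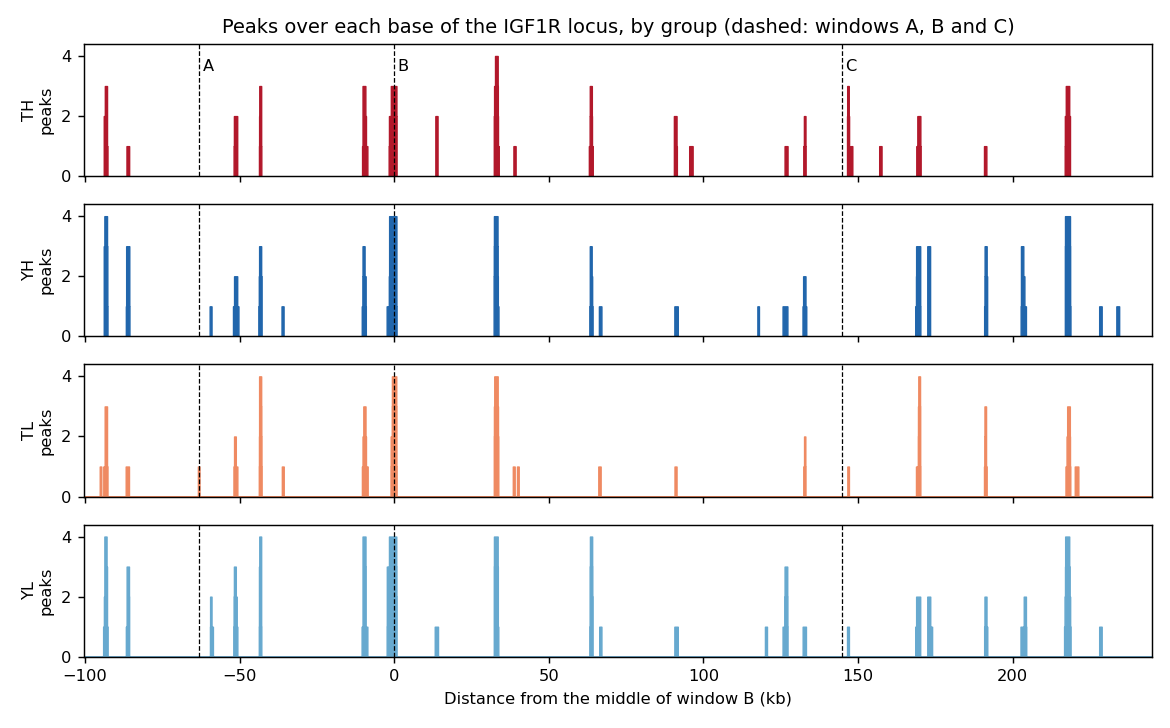
Number of peaks of each group over each base of the locus (y axis, 0 to 4) against the distance from the middle of window B in kb (x axis), with windows A, B and C as dashed lines. The column at 33.0 kb (C12) reaches 4 in every group, the column at window B reaches 3 in TH and 4 in the others, and window C stands just before a column that is tallest in TH.

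Peaks that overlapped in any list were joined, and this gave 33 clusters, numbered C1 to C33 along the locus, of 242875 clusters in the genome. The clusters were narrow islands with long gaps: their median span was 1089 bp (480 to 3222 bp), and the median gap between neighbours was 6438 bp. The longest gap, 25210 bp, lay between C8 and C9, and C10, the cluster at window B, was the longest cluster. Of the 17 clusters with at least 4 peaks, 6 had all their summits within 200 bp of each other. Between windows B and C, which lie 145 kb apart, there were 12 clusters with 55 peaks, of which 16 were TH, 13 YH, 10 TL and 16 YL.

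The clusters fell between sites marked in nearly every heart and sites marked in a single animal. A peak in 1 animal only was found at 10 clusters, 30.3% of the locus compared with 30.1% of all clusters of the genome, which is close to the background. These single peaks were weak in tags, with 11 to 30 tags (median 14.5), but not in fold enrichment, which was 4.96 to 12.42 (median 9.10). The other extreme was 6 clusters with peaks in at least 13 animals (C2, C7, C9, C10, C12 and C30), a state of 8.10% of the clusters of the genome. They held 87 peaks, 45.3% of the peaks of the locus, with 12 to 137 tags (median 36.0) and a fold enrichment of 5.17 to 21.06 (median 9.80). Peaks were present in all 4 groups at 12 clusters and in only 1 group at 10 clusters, compared with 28.6% and 34.8% of the clusters of the genome. All 4 animals of a group had a peak at 1 cluster in TH (4.37% of the clusters of the genome), 4 clusters in YH (9.02%), 4 clusters in TL (6.68%) and 7 clusters in YL (10.3%).

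**Figure D2:**
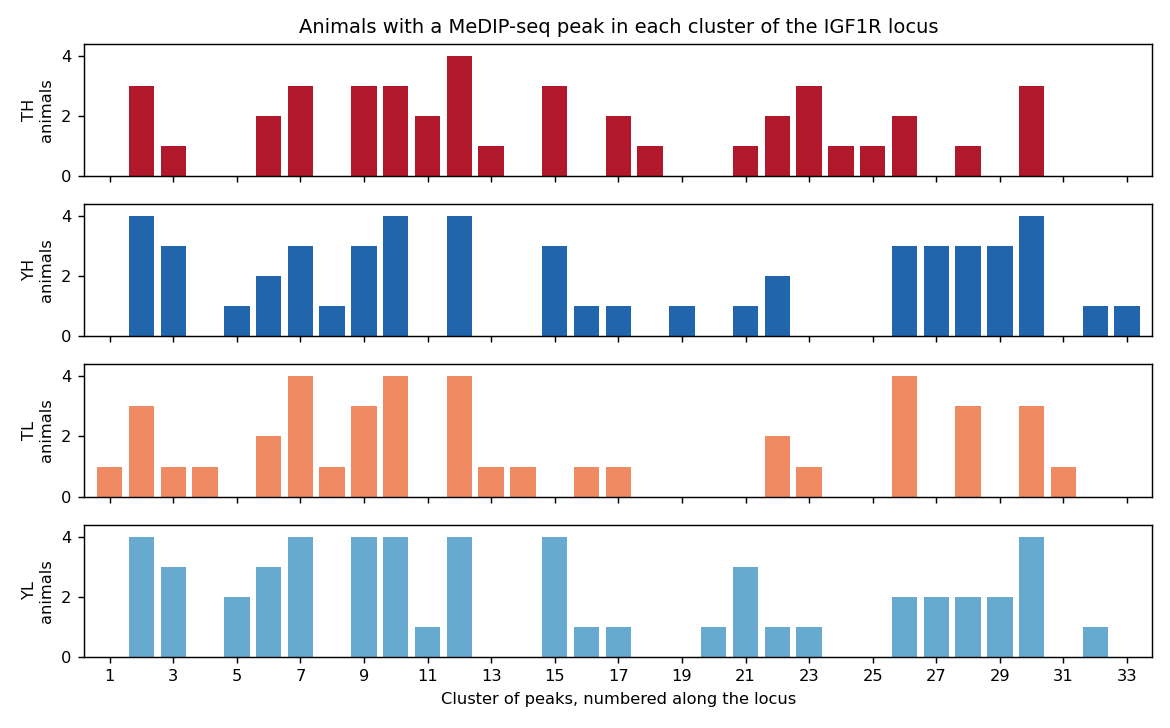
Number of animals with a peak (y axis, 0 to 4) in each of the 33 clusters (x axis) in the 4 groups. C12 reaches 4 in every group, C15 is empty in TL, and C27 and C29 are empty in TH and TL.

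C12, at chr1:153564418-153566056 and 33.0 kb after window B, was the only cluster of the locus with a peak in all 16 animals, a state that 1.82% of the clusters of the genome share. It also held the highest fold enrichment of any peak of the locus. The TH peaks had a fold enrichment of 10.12, 11.8, 13.99 and 21.06, and the YH peaks had 11.62, 12.97, 13.56 and 14.57. The TL peaks had 12.85, 14.33, 14.35 and 15.3, and the YL peaks had 10.96, 13.44, 14.32 and 15.01. The groups overlapped throughout, and the value of 21.06 belonged to a single TH peak with 50 tags while the other 15 peaks lay between 10.12 and 15.3. The summits of the 16 peaks lay within 424 bp of each other. Between TH and TL the mean log2 fold enrichment differed by -0.05 (TH minus TL, exact permutation p = 0.829, n = 4 per group), and between YH and YL by -0.02 (YH minus YL, exact permutation p = 0.857).

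The same test could be made in YH vs. YL at C2 and C30, where both groups also had 4 overlapping peaks. Their differences (YH minus YL) in mean log2 fold enrichment were -0.0049 at C2 (exact permutation p = 0.971) and 0.04 at C30 (exact permutation p = 0.886). C10 also had 4 peaks in both groups but holds window B, and it is described without a test. Over the genome an exact p under 0.05 was reached by 4.02% of 13822 such clusters in YH vs. YL and by 3.13% of 6172 in TH vs. TL, and by none of the clusters tested here, 3 in YH vs. YL and C12 alone in TH vs. TL. No adjusted p in either comparison was under 0.71 over the genome. A difference between the elevations was thus not detected at these clusters with 4 animals per group, where 0.0286 is the smallest p such a test allows, and clusters without 4 overlapping peaks in both groups were not tested.

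**Figure D3:**
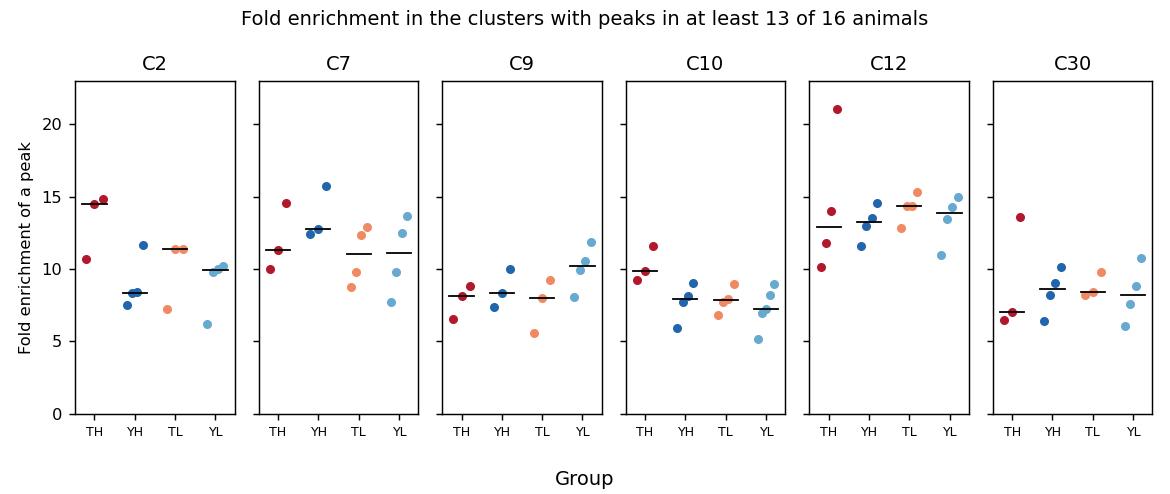
Fold enrichment of each peak (y axis, linear) by group (x axis) in the 6 clusters with peaks in at least 13 animals. Each point is a called peak, so an animal without a peak has no point, and the black line is the median of the group. At C10 the 3 TH points, 9.28 to 11.63, lie above the points of the other groups, 5.17 to 9.03, and at C2 the TH points, from 10.69, lie above the YL points, up to 10.24.

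Window B lay inside C10, at chr1:153529809-153533030. This cluster had more tags per peak than any other of the locus, with a median of 69.5. A peak over window B was present in 3 TH, 4 YH, 4 TL and 4 YL animals, so no group lacked a peak there. In TH the peaks had 42, 77 and 91 tags and a fold enrichment of 9.28, 9.84 and 11.63. In YH they had 78, 93, 94 and 104 tags and a fold enrichment of 8.16, 7.75, 9.03 and 5.93 in the same order. All 3 TH peaks were thus above all 4 YH peaks in fold enrichment, while in tags 2 of them were below all YH peaks, and as this contrast chose the window nothing is read from it. In TL the peaks had 35, 48, 57 and 57 tags with a fold enrichment of 7.94, 6.82, 7.74 and 8.95, and in YL 30, 62, 92 and 137 tags with 6.99, 7.21, 8.21 and 8.97.

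The peaks over window B also differed in length. They were 1815 to 2514 bp in TH, 2353 to 3222 bp in YH, 1412 to 1897 bp in TL and 920 to 3125 bp in YL. The difference lay at the left side, since the right ends of the peaks were close together in all groups, and the first 679 bp of the cluster were covered by Yorkshire peaks only. A YL peak of 1899 bp (51 tags, fold enrichment 5.17) ended before the window, and another YL peak of 920 bp (30 tags, fold enrichment 6.99) began 274 bp after the end of that peak, inside the window. These can belong to the same animal, since they do not overlap. The summits fell on both sides of the window: 5 of the 16 lay 437 to 1096 bp before its middle and 11 lay 228 to 494 bp after it.

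Between the elevations, the mean log2 fold enrichment over window B was 3.35 in TH and 2.97 in TL, with all 3 TH values above all 4 TL values. It was 2.93 in YH and 2.96 in YL, whose values overlapped. These values exist for called peaks only, so the TH animal without a peak over the window enters none of the TH means given here. Tags were on average 20.8 more in TH than in TL, and they averaged 92.2 in YH and 80.2 in YL. The lengths averaged 2239 bp in TH and 1675 bp in TL, and 2602 bp in YH and 2390 bp in YL. Between the breeds of the lowland, tags averaged 49.2 in TL and 80.2 in YL and lengths 1675 and 2390 bp, while log2 fold enrichment averaged 2.97 and 2.96, and the ranges of the groups overlapped in all 3 measures. Tags are not scaled for the depth of a library, and the YL list was also the largest. The TH and YH values chose window B, and TL vs. YL chose the other windows of the locus, so none of these differences carries a test.

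**Figure D4:**
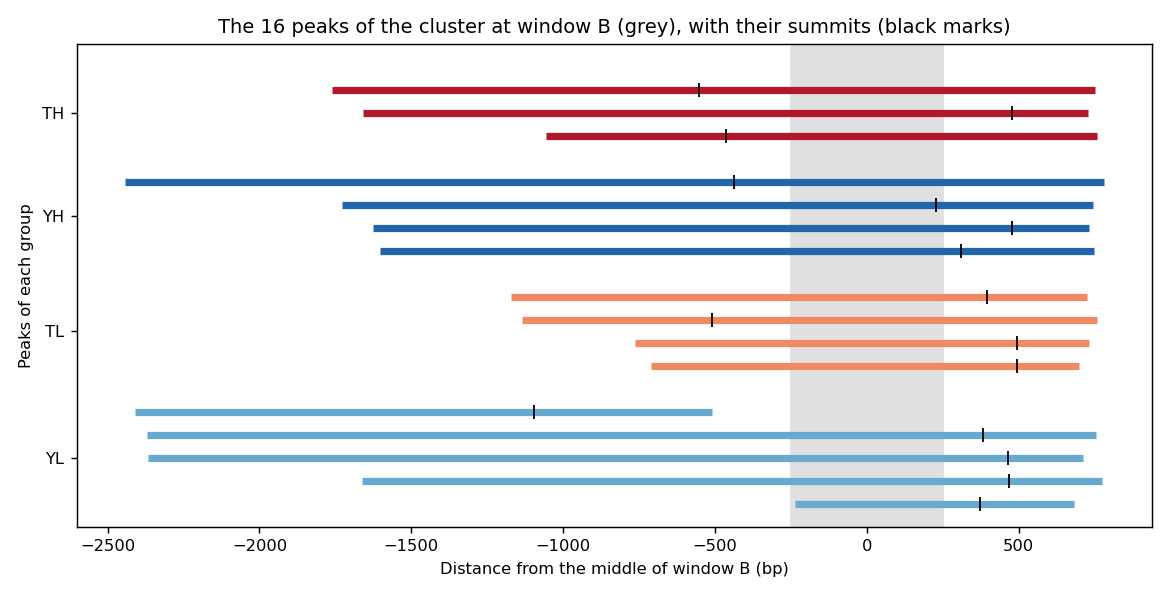
The 16 peaks of C10 as bars against the distance from the middle of window B in bp (x axis), stacked by group, with the window in grey and each summit as a black mark. The right ends lie close together while the left ends reach furthest in a YH and 3 YL peaks. In YL, 1 bar ends before the window and another starts at its edge.

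Window C held no peak in any of the 4 lists, and the nearest peaks lay in C23, which began 1236 bp after it. C23, at chr1:153678737-153679515, had peaks in 3 TH, 0 YH, 1 TL and 1 YL animals. The TH peaks had 14, 20 and 23 tags and a fold enrichment of 8.73, 8.36 and 9.40, the TL peak had 24 tags and 11.29, and the YL peak had 23 tags and 5.45. The 5 summits lay within 64 bp, so the animals that had the peak had it at the same place. A single TH peak, C24, lay 452 bp further on. A base without a peak was not called by the peak caller, which does not show that it was unmethylated.

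Window A overlapped C4, a cluster of a single TL peak of 14 tags and a fold enrichment of 9.32 at chr1:153468776-153469295. The other 15 animals had no peak there. The nearest cluster on the other side, C5, began 3059 bp after the window and held 1 YH and 2 YL peaks of 13 to 18 tags.

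The cluster with the largest difference between groups was C15, at chr1:153595229-153596500, which lay between windows B and C, 63.6 kb after window B. It had peaks in 3 TH, 3 YH and 4 YL animals and in 0 TL animals. The TH peaks had 13, 20 and 22 tags and a fold enrichment of 6.79, 11.64 and 11.63, the YH peaks had 14, 17 and 27 tags with 6.76, 9.0 and 7.39, and the YL peaks had 15, 19, 22 and 27 tags with 7.13, 9.17, 8.12 and 9.80. The 10 summits lay within 185 bp. C15 was the 1 cluster of 28 with 4 animals against 0 in TL vs. YL, which 0.785% of the clusters of the genome reached. The count was 0 when only peaks with at least 20 tags, or with a fold enrichment of at least 10, were kept. As window C was chosen in that contrast, nothing is read from it. Against TH, the other Tibetan group, the difference of 3 and 0 animals had a two-sided Fisher's exact p = 0.143 and an adjusted p = 1.00 over all clusters with a peak. TL was the smallest list, and the peaks of C15 in the other groups were low in tags, at a median of 19.5 against 24.0 for the locus. Whether either bears on the absence of TL peaks at C15 was not tested.

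C21, at chr1:153657886-153659487, had peaks in 1 TH, 1 YH, 0 TL and 3 YL animals. The TH peak had 18 tags and a fold enrichment of 8.33, the YH peak had 40 tags and 8.92, and the YL peaks had 23, 29 and 40 tags with 5.90, 8.55 and 4.57. The 5 summits lay within 69 bp, near the right end of the cluster.

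C27 and C29 had peaks in Yorkshire pigs at both elevations and in no Tibetan pig. C27, at chr1:153704661-153706235, had 3 YH peaks of 25, 29 and 31 tags with a fold enrichment of 6.41, 5.44 and 4.86 and 2 YL peaks of 29 and 47 tags with 6.19 and 4.78. It began 2152 bp after the end of C26, where 2 TH, 3 YH, 4 TL and 2 YL animals had a peak. C26 held 3 TH peaks that do not all overlap, so its 2 TH animals are the fewest possible. At least 6 Tibetan animals thus had the neighbouring peak and none had a peak at C27. C29, at chr1:153734851-153736678, had 3 YH peaks of 19, 25 and 30 tags with a fold enrichment of 8.90, 8.68 and 9.75 and 2 YL peaks of 17 and 39 tags with 9.80 and 7.46. Peaks in at least 5 Yorkshire and 0 Tibetan animals were found at 2 of the 33 clusters, 6.06%, and at 0.512% of the clusters of the genome. The opposite, at least 5 Tibetan and 0 Yorkshire animals, was found at 0 of the locus and at 0.170% of the genome. C27 and C29 each had 5 animals, the fewest this count allows. No peak of either had a fold enrichment of at least 10, so neither would be counted under that limit. With at least 20 tags, C29 would lose its peaks of 17 and 19 tags and drop out, while C27 would keep all its peaks. The shares of the genome under these limits were not computed. The breeds had chosen the locus, so these are counts without a test.

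**Figure D5:**
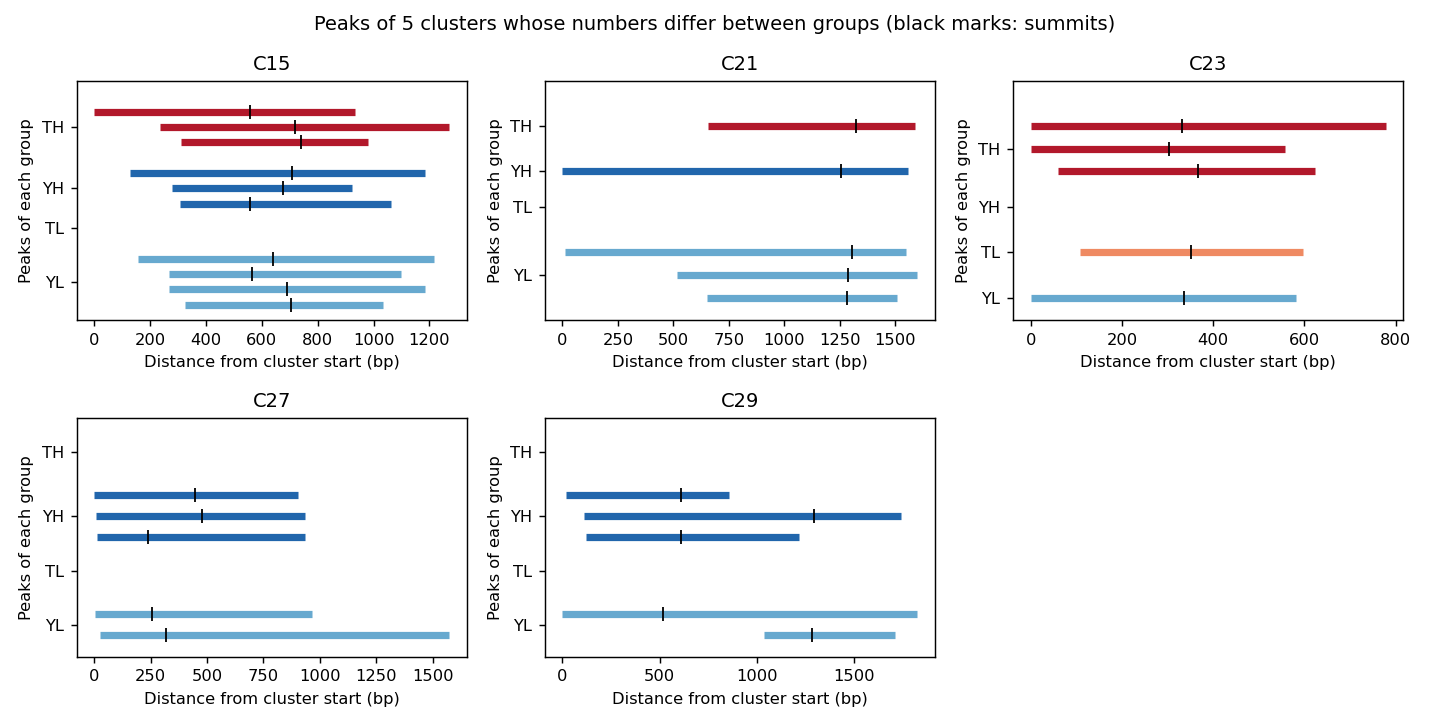
Peaks of C15, C21, C23, C27 and C29 as bars against the distance from the start of the cluster in bp (x axis), stacked by group, with summits as black marks. An empty row is a group without a peak: TL at C15 and C21, YH at C23, and TH and TL at C27 and C29.

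Counted over all clusters of the locus, the Yorkshire groups had 106 animal peaks (1 for each animal with a peak at a cluster) and the Tibetan groups 84. More Yorkshire than Tibetan animals had a peak at 17 clusters and fewer at 13, with 3 equal, so Yorkshire was ahead at 56.7% of the unequal clusters, compared with 57.5% in the genome. Yorkshire was alone at 7 of the 33 clusters and Tibetan at 8, compared with 22.0% and 21.1% of the clusters of the genome. With at least 2 animals these were 4 (C5, C27, C29 and C32) and 1 (C13), compared with 7.31% and 5.68% of the genome. Where both breeds had at least 2 peaks, at 13 clusters, the median of tags was higher in Yorkshire at 12 and in Tibetan at 1, and over the genome it was higher in Yorkshire at 73.9% of such clusters. The median of fold enrichment was higher in Yorkshire at 6 and in Tibetan at 7, and over the genome it was higher in Yorkshire at 28.3%. In TH vs. YH, 0 of 28 clusters had 4 animals against 0 (0.486% of the genome), and 3 differed by 3 animals (C23, C27 and C29). In TL vs. YL, C21 differed by 3 animals.

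Between the elevations the totals were close, with 94 animal peaks in the highland and 96 in the lowland. In the counts that follow, C4 and C10 are included as descriptions. In TH vs. TL, 0 of 26 clusters with a peak had 4 animals against 0, compared with 0.234% of the genome, and C15 was the only 1 that differed by 3. In YH vs. YL, 0 of 25 clusters did so, compared with 0.278% of the genome, and none differed by 3 or more. As 4 against 0 is the only split of 4 and 4 animals under an unadjusted p of 0.05, these counts are also those by the unadjusted p (two-sided Fisher's exact test). With both breeds joined, 8 highland against 8 lowland animals, more highland animals had a peak at 12 clusters, more lowland animals at 14 and equal numbers at 7. The smallest two-sided Fisher's exact p of the locus was 0.467, at C7 with 6 highland and 8 lowland animals. Leaving out C4 and C10, which overlap windows, none of the clusters was under an adjusted or an unadjusted p of 0.05, compared with 0% and 0.448% of the clusters of the genome.

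Other genes of the pathway were taken from a list of 36 genes of ligands, binding proteins, receptors, adaptors and kinases, of which 5 had a window, 7 distinct windows in all, among the 1998 listed windows of TH vs. YH and 1559 of TL vs. YL used here. Those are only part of the study's lists, so this is no tally of the pathway. All were chosen by the reads of these animals, so their counts are descriptions. Of the receptors, IGF2R, which binds IGF2 and clears it from the cell surface, had a promoter window at chr1:9275501-9276000 with a peak in 2 TH, 0 YH, 1 TL and 0 YL animals, and an intron window at chr1:9199501-9200000 with 0 TH, 2 YH, 0 TL and 3 YL. Of the adaptors, GRB2, which couples receptors to RAS, had an intron window at chr12:5874501-5875000 with no peak in any group, the same state as window C. Of the kinases, MAP2K1, which acts in the MAP kinase cascade, had an intron window at chr1:182169001-182169500 with 1 TH, 1 YH, 1 TL and 3 YL. FOXO1, a transcription factor that AKT keeps out of the nucleus, had neighbouring promoter windows at chr11:15691501-15692000 and chr11:15692001-15692500, each with peaks in 3 TH, 0 YH, 4 TL and 0 YL animals. The same peaks lay over both FOXO1 windows, so these are not separate counts. Breed comparisons at both elevations had listed FOXO1 windows, so nothing is read from a split by breed there. At window B of IGF1R, all groups had peaks in at least 3 animals.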

How the data were processed

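MeDIP-seq of heart tissue from 16 pigs, 4 per group, was used. The authors trimmed reads with FASTX 0.0.13, mapped them with Bowtie 0.12.8 to the Sscrofa10.2 genome of Ensembl release 69 and used MACS 1.4 to call peaks with a DiffScore of 50 or more. They deposited 1 list of peaks per group. The deposited tags of a peak are a raw count, and the deposited fold enrichment is the ratio that MACS gave. Peak ends were taken from the joint start and end field. Reads per animal were not used here, so the size of the lists is the only measure of depth given.

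Overlapping peaks (at least 1 bp) of the 4 lists were joined to clusters over the whole genome with Python (version 3.11.15), pandas (version 2.3.3) and NumPy (version 2.4.6). Animals with a peak were compared by two-sided Fisher's exact tests (SciPy, version 1.17.1), with Benjamini-Hochberg adjustment over all clusters with a peak, and log2 fold enrichment by two-sided exact permutation tests over all 70 assignments where both groups had 4 overlapping peaks. The tests were tested on simulated data. Alternatives were peaks within 500 bp joined, at least 20 tags, a fold enrichment of at least 10, peaks of at least 500 bp, other counts of animals, peaks over the middle base or within 2000 bp of a window, merged peaks, tags in place of fold enrichment and 1 animal left out.

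The clusters described in full are those at the windows, those with 4 animals in each group and those where groups differ by at least 3 animals. The locus, the gene list and these rules were chosen with earlier results of these data known. From the study's tables only the position and element of each window and the comparison that listed it were used, and no values. No reference sequence of this build was used. The result at 1 gene of the list is not reported here.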

Additional observations from a re-analysis of the deposited data

Results flagged for a closer look

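At C2 (chr1:153438148-153439561), the fold enrichment of the 4 YL peaks was 6.19, 9.80, 10.04 and 10.24. The lowest value stood apart from the other 3: its gap to the next was 0.891 of the range of the group, above Dixon's critical value of 0.829 for 4 values. That peak had 18 tags, and the YL peak of 10.04 had 15. In YH the values were 7.55, 8.32, 8.40 and 11.66. Of 32 sets of 4 values examined, 1 met this criterion, and chance gives about 1 in 20.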

How the results depend on the processing

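For the 29 results, 109 values under other settings were set against the main value, and 0 reversed. Of these, 99 were counted as unchanged, by direction, side of the threshold or a limit of 1.5 times the main count. Many main values were 0, which has no direction to keep, so the 99 does not measure how stable the results are. At window C, counting peaks within 2000 bp moved the difference in animals from 0 to 3 in TH vs. YH. It moved from 0 to 2 in TH vs. TL and from 0 to -1 in YH vs. YL. These moves were counted among the 99. With at least 20 tags, the call at C15 in TL vs. YL was lost (0 in place of 1), the clusters fell from 33 to 20 and those with a single animal from 10 to 3. With a fold enrichment of at least 10 the same 3 numbers were 0, 16 and 6. Fewer peaks enter under both settings. Leaving out 1 animal of either group could give 0 to 3 calls of all remaining animals against 0 in TH vs. YH, 1 to 2 in TL vs. YL and 0 to 1 in TH vs. TL. These are bounds, as the animals have no names, and the 8 against 8 comparison was not run in this way. The share of the clusters of the genome under the same rule was not computed, so nothing is read from these counts. Peak length in place of fold enrichment was an alternative chosen after seeing the data. At C10, the 4 overlapping YL peaks had a median length of 2758 bp and the TL peaks 1695 bp. As C10 holds window B and the contrast is between breeds, this difference is given without a test and nothing is read from it. The cause was not tested. No paired analysis was possible because the peaks carry no animal or replicate numbers. The depth of each animal behind a peak is unknown here, a site without a peak can be methylated below the threshold of the caller, and with 4 animals per group a difference of 3 animals cannot reach a p under 0.05.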
